A study of Bos taurus with 13 samples.

Results

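bta-miR-132 was followed through 13 libraries of extracellular vesicle (EV) small RNA from bovine follicular fluid, 1 library per pool of fluid. It was chosen by its name, together with bta-miR-212 where listed. bta-miR-132 was listed in all 13 libraries, as 1 of 311 miRNAs listed in at least 1 group and 1 of 262 listed in all 5, whereas bta-miR-212 was listed in 0 libraries and was not analysed here. All animals were female Holstein Friesians, and the fluid was drawn from large follicles by ovum pick-up. Transient cows (TCs), which were in negative energy balance at weeks 5 and 6 post-calving and in positive balance at weeks 9 and 10, gave 3 pools at weeks 5 and 6 (11 cows) and 3 pools at weeks 9 and 10 (7 cows). Always negative cows (ANCs) and always positive cows (APCs) gave 2 pools each at weeks 5 and 6, from 2 cows per group. The heifers, young animals that had not calved, gave 3 pools from 8 animals, which the study describes as metabolically unstressed. Energy status of the cows had been assigned from blood metabolites, body weight and feed intake. None of the animals had received a treatment that the labels name. The labels give no ages. Which animals went into which pool, and whether the TCs of the earlier and the later weeks were the same cows, is not given in the sources used here. The p-values therefore measure only the spread between these pools, which may be in part technical. The stage of the oestrous cycle at collection is not given in the sources used here.

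miRNAs are short RNAs that guide silencing proteins to complementary messenger RNAs, mostly lowering their translation or stability. miR-132 and miR-212 are cut from a common precursor transcript whose promoter answers to the transcription factor CREB, which is switched on by cyclic AMP. In granulosa cells, the cells that line the follicle, luteinizing hormone acts through a receptor that raises cyclic AMP, and miR-132 is known there as a miRNA induced by the gonadotropin surge. EVs in follicular fluid carry miRNAs released by granulosa, theca and other cells, so a level in EVs combines how many vesicles each cell type released with how much miRNA each vesicle held, and the 2 cannot be told apart here. In the RefSeq annotation of the assembly ARS-UCD2.0, MIR132 and MIR212 are neighbouring entries, flanked by OVCA2 on the side of MIR132 and by HIC1 on the side of MIR212.

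Levels are given as CPM, reads scaled to the size of the library, after scaling all 13 libraries together. In TCs at weeks 5 and 6, bta-miR-132 was 267 CPM in replicate 1, 201 CPM in replicate 2 and 1172 CPM in replicate 3. In TCs at weeks 9 and 10 it was 2737, 149 and 69.7 CPM in replicates 1 to 3. In each of these groups 1 pool stood well above the other two, and it was not the same replicate number. In ANCs the pools held 90.3 and 80.2 CPM, the only group whose pools lay close together. In APCs replicate 1 held 5291 CPM and replicate 2 held 93.5 CPM, so that the second APC pool was next to the ANC pools. In heifers the pools held 945, 224 and 6382 CPM. Heifer replicate 3 and APC replicate 1 were the highest of all 13 pools, and the lowest was a pool of TCs at weeks 9 and 10.

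**Figure D1:**
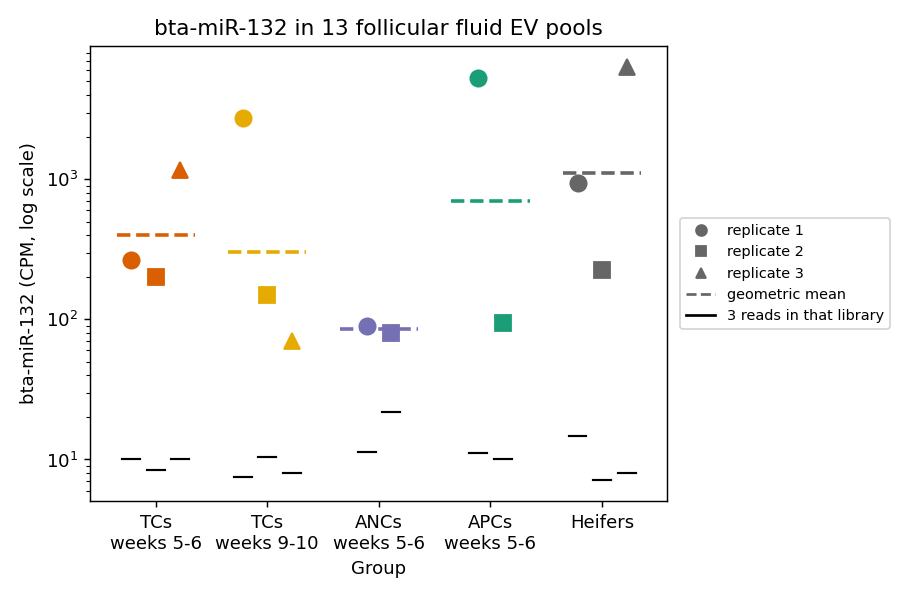
Level of bta-miR-132 in CPM (log axis) in each of 13 EV pools, by group. Symbols give the replicate number, dashed lines the geometric mean of a group and black ticks the level that 3 reads would give in that library. A pool of 1172 CPM or more occurs in every group but the ANCs, whose pools lie at 90.3 and 80.2 CPM.

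The reads behind these values differed as much. The libraries held 145030 to 421435 miRNA reads, of which bta-miR-132 took 11 reads in ANC replicate 2, the fewest, and 2382 reads in heifer replicate 3, the most. The share of reads was 0.687% in heifer replicate 3 (95% exact interval 0.66 to 0.715%) and 0.434% in APC replicate 1 (0.412 to 0.457%). It was 0.00758% in ANC replicate 2 (0.00379 to 0.0136%), 0.0108% in ANC replicate 1 (0.00692 to 0.0161%) and 0.00664% in APC replicate 2 (0.00441 to 0.0096%). The intervals of these 3 low pools overlap each other and are far from those of both high pools. The intervals cover counting error only. A level of 3 reads, taken as the smallest visible one, stood at 7.08 to 21.9 CPM, so that bta-miR-132 was above it in every pool. Ordered by abundance within a library, bta-miR-132 ranked from 33rd in heifer replicate 3 and 38th in APC replicate 1 to 174th in ANC replicate 2 and in replicate 3 of TCs at weeks 9 and 10. It was thus among the more abundant miRNAs of some pools and far down the order in others of the same group. Across the 13 pools, Pearson's r of its level with the log2 number of reads was 0.26 (Spearman's rho 0.31), a description over pools that differ in group.

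The spread of bta-miR-132 between replicate pools was wide compared with that of other miRNAs. On the scale log2(CPM + 5), the standard deviation (SD) between pools of a group, pooled over groups, was 2.42. This ranked 2nd among the 247 miRNAs that were listed for all groups and passed the low-count filter, for which the median was 0.57. bta-miR-34c, a miRNA of ciliated epithelia and germ cells, ranked 1st with 2.45, and 4 of the 247 miRNAs had an SD over 2. The other 2 were bta-miR-449a, of the same family as bta-miR-34c, and bta-miR-184, named after its values were seen. By group, the distance between the highest and the lowest pool was 5.75 on the log2 scale in APCs, 5.20 in TCs at weeks 9 and 10 and 4.80 in heifers. In each of these 3 groups no other of the 247 miRNAs had as large a distance. In TCs at weeks 5 and 6 the distance was 2.51 (19th), and in ANCs it was 0.16 (207th), below the median over miRNAs of 0.54. As a ratio of highest to lowest CPM this came to 56.6 in APCs, 39.3 in TCs at weeks 9 and 10, 28.5 in heifers, 5.82 in TCs at weeks 5 and 6 and 1.13 in ANCs. bta-miR-132 and bta-miR-34c were not high in the same pools. bta-miR-34c peaked at 7699 CPM in replicate 2 of TCs at weeks 5 and 6, where bta-miR-132 was 201 CPM, and Pearson's r between them was -0.03 over the 13 pools.

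**Figure D2:**
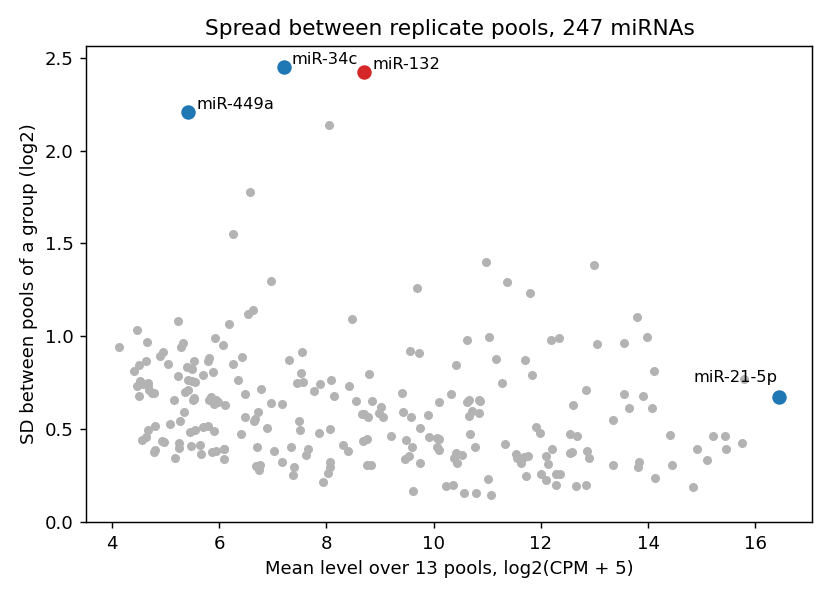
SD between replicate pools of a group (vertical axis, log2 units, pooled over 5 groups) against the mean level over 13 pools (horizontal axis, log2(CPM + 5)) for 247 miRNAs, 1 point each. bta-miR-132, in red, has an SD of 2.42 and lies near bta-miR-34c at the top, while the most abundant miRNA, bta-miR-21-5p, has an SD of 0.67.

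Over the 5 groups together, the differences in bta-miR-132 did not pass a test against this spread. The mean of log2(CPM + 5) was 10.12 ± 2.41 in heifers (SD, n = 3), 9.50 ± 4.06 in APCs (n = 2), 8.66 ± 1.35 in TCs at weeks 5 and 6 (n = 3), 8.30 ± 2.75 in TCs at weeks 9 and 10 (n = 3) and 6.49 ± 0.11 in ANCs (n = 2). Group membership accounted for 27.2% of the variance among pools, which ranked bta-miR-132 188th of 247 miRNAs. limma's moderated F test over the 5 groups gave an adjusted p = 0.593 (Benjamini-Hochberg), and an exact permutation test over all 7207200 assignments of the pools gave p = 0.574. No neighbours in this order were called different. Their log2 fold changes were -0.57 for APCs against heifers (95% interval -4.98 to 3.85), 0.71 for APCs against TCs at weeks 5 and 6 (-3.08 to 4.50), -0.29 for TCs at weeks 9 and 10 against weeks 5 and 6 (-3.11 to 2.53) and -1.85 for ANCs against TCs at weeks 9 and 10 (-4.93 to 1.23). The intervals include changes of more than 2 on the log2 scale in both directions, or more than 1 for the last, so that these data do not show equal levels either.

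By limma on the log2 scale, the largest difference was between ANCs and heifers, the groups with the lowest and the highest mean of log2(CPM + 5). By mean CPM, APCs (2692) were above heifers (2517), and edgeR and DESeq2 gave log2 fold changes of -4.88 and -4.96 for ANCs against APCs and -4.82 with both tools for ANCs against heifers. bta-miR-132 was downregulated in ANCs against heifers with a log2 fold change of -3.62 (SE 1.04, 95% interval -5.95 to -1.30, adjusted p = 0.0874 by limma with Benjamini-Hochberg adjustment, n = 2 and 3). This was 12.3-fold lower on the CPM + 5 scale. A miRNA was called differentially expressed (DE) at a log2 fold change of at least 1 in either direction with p under 0.05 before adjustment and no more than 0.25 after it, the thresholds of the study. In this comparison 19.1% of the 215 miRNAs tested were called, 12.6% as lower and 6.51% as higher in ANCs. bta-miR-132 had the 3rd largest change and the 15th smallest p-value. All 3 heifer pools, the lowest at 224 CPM, were above both ANC pools, but the 2 groups did not overlap for 47.9% of all miRNAs tested. The exact two-sided permutation p was 0.2, where 2 pools against 3 cannot go below 0.1. The SE of 1.04 draws on the spread of all miRNAs. From the spread of bta-miR-132 alone it was 1.76, and the adjusted p was then 0.343. limma called 0 miRNAs in that setting, against 41 before. In 1 fit over all 13 libraries the SE was 1.83 and the adjusted p = 0.257, just past the threshold. Without ANC replicate 1 the call was also lost (log2 fold change -3.77, adjusted p = 0.297), and without heifer replicate 3 it was -2.36 and still called.

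Within a day of RNA measurement, as far as a day is listed, the direction was the same. It had to be, since the pools of the 2 groups did not overlap, so only the sizes are informative. On the first day ANC replicate 1 held 90.3 CPM and heifer replicate 1 held 945 CPM, a difference of -3.32 on the log2 scale. On the next day ANC replicate 2 held 80.2 CPM and heifer replicates 2 and 3 held 224 and 6382 CPM, a mean difference of -3.83. Markers of other cell types moved in the same comparison, in which 12.6% of all miRNAs tested were called lower and 6.51% higher. All 5 leukocyte miRNAs tested, of 6 on the list, were called lower in ANCs, where the 6 summed to 707 and 1721 CPM against 4798 to 5743 CPM in heifers. Both erythroid miRNAs tested, of 3 on the list, were called lower, and their sum was 124 and 1247 CPM in ANCs against 1707 to 3902 CPM in heifers. The defining erythroid bta-miR-451 was at 0 CPM in ANC replicate 1. Of 6 epithelial miRNAs 4 were called lower (4880 and 8955 CPM in ANCs, 14157 to 21009 CPM in heifers), and so was the hepatic bta-miR-122 (312 and 3187 CPM against 5337 to 17371 CPM). Of 6 miRNAs listed for gonadal somatic cells, 3 were called higher in ANCs and 0 lower, with sums of 10757 and 12623 CPM against 4882 to 8724 CPM. The called ones include bta-miR-424-5p (log2 fold change 1.65) and bta-miR-450b (1.04). bta-miR-202 (0.76, adjusted p = 0.243 by limma) and bta-miR-450a (1.28, adjusted p = 0.35) were not called. Members of this list are not independent, since bta-miR-503-5p is transcribed with bta-miR-424-5p, so the count does not show a shift of a cell type. Of the list of ciliated cell miRNAs 2 members were tested, and of the neuronal list 2, with 0 called on either. The part of these shifts in the value of bta-miR-132 was not tested. Over the 13 pools, Pearson's r of bta-miR-132 was 0.33 with the leukocyte sum, 0.37 with the erythroid sum, -0.28 with the epithelial sum, 0.14 with the gonadal somatic sum, -0.14 with the ciliated cell sum, 0.03 with the neuronal sum and -0.01 with bta-miR-122. These correlations over all 13 pools are weak, and the sums come from the same libraries. With each group centred on its mean, r with bta-miR-132 was -0.78 to -0.55 for epithelial and 0.01 to 0.73 for gonadal somatic miRNAs. It was -0.54 to 0.55 for the leukocyte miRNAs, 0.14 and 0.21 for the erythroid ones and -0.57 for bta-miR-122. For the ciliated cell and neuronal miRNAs it was -0.68 to -0.03 and -0.13 to 0.71.

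ANCs were also the lower group in the other comparisons they entered, without a call by limma on all pools and without a replicate block. The study, which used edgeR, did report bta-miR-132 as downregulated in ANCs against APCs and against TCs at weeks 5 and 6. It also lists bta-miR-132 as downregulated in ANCs against heifers. Against TCs at weeks 5 and 6, which were likewise in negative energy balance, the log2 fold change was -2.20 (SE 0.74, 95% interval -3.96 to -0.44, adjusted p = 0.483 by limma). The pools of these 2 groups did not overlap, which held for 26.2% of the 225 miRNAs tested, and the exact permutation p was 0.2. Against APCs, the contrast of constantly negative with constantly positive energy balance, the log2 fold change was -2.94 (SE 1.77, 95% interval -7.38 to 1.50, adjusted p = 0.576), and it rested on 1 pool. Without APC replicate 1 it was -0.11, and without APC replicate 2 it was -5.80, each with a lone APC pool whose spread cannot be measured. Against TCs at weeks 9 and 10, the cows that had recovered, the log2 fold change was -1.85 (SE 1.33, adjusted p = 0.618) and the pools overlapped, since TC replicate 3 was the lowest of the 5. In these 3 comparisons 0% of the miRNAs tested were called by limma, and 18, 16 and 13 miRNAs, in the order given, had p under 0.05 before adjustment. DESeq2 on the recovered reads called bta-miR-132 in ANCs against APCs (log2 fold change -4.96) and in ANCs against TCs at weeks 9 and 10 (-3.47). edgeR, run here with its quasi-likelihood test on the recovered reads, called bta-miR-132 in neither. The study does not state which edgeR test it used, so this is not a repeat of its test.

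In the comparisons without ANCs, limma on all pools and without a replicate block did not call bta-miR-132. TCs at weeks 5 and 6 were lower than heifers by a log2 fold change of -1.44 (SE 1.22, 95% interval -4.34 to 1.46, adjusted p = 0.525 by limma), in a comparison where 6.52% of 230 miRNAs were called. Same-numbered pools of these 2 groups varied together over all miRNAs. With the replicate number as a block in limma, the same fold change of -1.44 had an SE of 0.45 and an adjusted p = 0.112, which passed the call rule. This SE draws on the spread of all miRNAs and does not measure that of bta-miR-132 alone. DESeq2 without a block also called bta-miR-132 (log2 fold change -2.08, adjusted p = 0.234). In each of the 3 numbered pairs the TC pool was the lower, with 267 against 945, 201 against 224 and 1172 against 6382 CPM. The pairing was read from these same libraries, so the block and this order are not separate evidence. TCs at weeks 9 and 10 had a log2 fold change of -1.84 to heifers (SE 1.42, adjusted p = 0.701), with 0% of the miRNAs called and 23 with p under 0.05 before adjustment. For APCs against heifers the adjusted p was 0.916 (SE 1.86), where 12.4% of the miRNAs were called, and leaving out 1 pool moved the fold change from -3.40 to 2.30. APCs against TCs gave an adjusted p of 0.992 at weeks 5 and 6, where limma called 0% of the miRNAs and 6 had p under 0.05 before adjustment. Against weeks 9 and 10 the adjusted p was 0.874 (log2 fold change 1.28, SE 2.02), where 9.61% were called. Without APC replicate 1 the sign of both was the opposite, at -2.02 and -1.58, and without APC replicate 2 they were 3.64 and 4.15, the latter with an adjusted p of 0.0659 and called, where the lone APC pool is assumed to vary like the TC pools. Between the 2 times of TCs the adjusted p was 0.937, with 0% called and 13 miRNAs with p under 0.05 before adjustment.

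**Figure D3:**
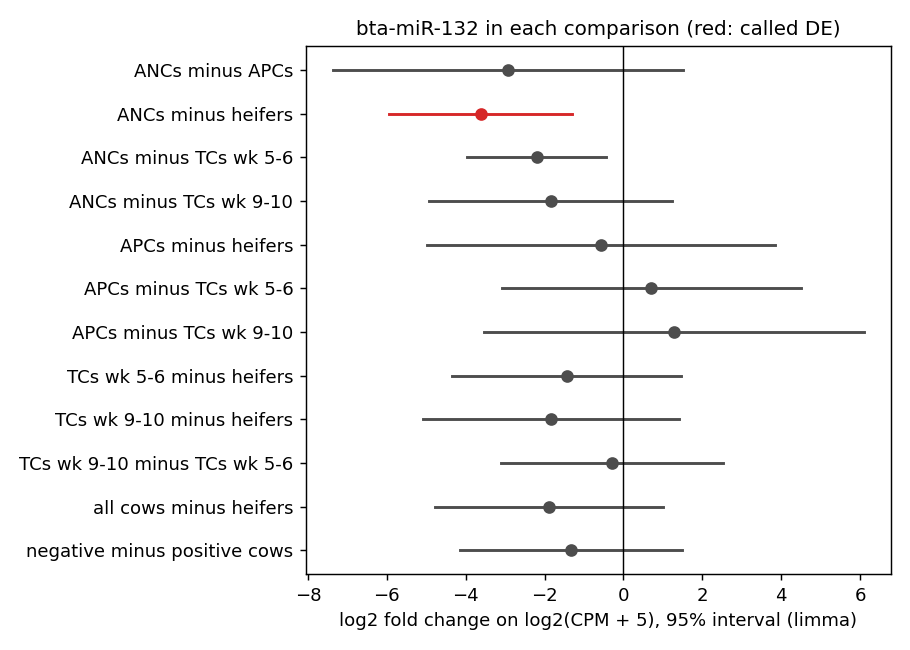
log2 fold change of bta-miR-132 in 12 comparisons with its 95% interval from limma, on the log2(CPM + 5) scale, where a negative value is lower in the group named first. The interval for ANCs against heifers, in red, is the called one, and apart from it the interval for ANCs against TCs at weeks 5 and 6 also lies below 0.

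Taking the groups together, all cows against heifers had a log2 fold change of -1.89 (SE 1.33, 95% interval -4.78 to 1.0, adjusted p = 0.405 by limma), in a contrast that called 7.29% of 247 miRNAs. The exact permutation p of 10 cow pools against 3 heifer pools was 0.266, and the cow pools, at 69.7 to 5291 CPM, overlapped the heifer pools, at 224 to 6382 CPM. Age, calving and lactation differ between heifers and cows together and cannot be told apart. Among cows, the groups in negative balance (ANCs and TCs at weeks 5 and 6) against those in positive balance (APCs and TCs at weeks 9 and 10) had a log2 fold change of -1.32 (SE 1.29, 95% interval -4.14 to 1.50, adjusted p = 0.922), with 0.405% of the miRNAs called. The exact permutation p of 5 pools against 5 was 0.516. In the negative groups the 5 pools lay between 80.2 and 1172 CPM, and in the positive groups between 69.7 and 5291 CPM. Without APC replicate 1 this contrast was 0.11.

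The other miRNAs that are known to be regulated by luteinizing hormone, cyclic AMP or luteinization were followed beside bta-miR-132. Those listed for all groups correlated only weakly with it over the 13 pools. The list held 8 miRNAs, of which 7 were listed in at least 1 group and 5, with bta-miR-132, were listed for all groups and passed the filter. bta-miR-21-5p, also induced by the gonadotropin surge in granulosa cells and known to protect them from cell death, had a Pearson's r of -0.12 with bta-miR-132 over the 13 pools. The r was -0.13 for bta-miR-182 and 0.23 for bta-miR-183, which belong to a cluster that rises in luteal cells, and -0.16 for bta-miR-378, known as a repressor of aromatase, the oestrogen-forming enzyme. The SD of these miRNAs between pools of a group was 0.26 to 0.74, against 2.42 for bta-miR-132. With each group centred on its mean, r with bta-miR-132 was -0.59 for bta-miR-21-5p, -0.62 for bta-miR-182, -0.13 for bta-miR-183 and -0.26 for bta-miR-378. bta-miR-21-3p had 1 to 19 reads and bta-miR-96 had 0 to 15 reads in the libraries that list them, and they were not listed for TCs at weeks 9 and 10.

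In ANCs against heifers, 3 of the 5 tested members of this list were called lower and 0 higher, where 12.6% of all miRNAs tested were called lower and 6.51% higher, with a list median of -1.30 against -0.01 over all 215 miRNAs. Beside bta-miR-132 these were bta-miR-182, with a log2 fold change of -1.30 (adjusted p = 0.0933), and bta-miR-183, with -1.64 (adjusted p = 0.0983). The count and the list median include bta-miR-132, and the list was chosen with earlier results known, so they are not independent evidence. bta-miR-21-5p had -0.99 (adjusted p = 0.121), just short of the fold threshold, and bta-miR-378 had -0.07. bta-miR-182 was 233 and 204 CPM in ANCs and 477, 649 and 531 CPM in heifers. bta-miR-183 was 139 and 182 CPM in ANCs and 326, 415 and 973 CPM in heifers. For both the 2 groups did not overlap, as for 47.9% of all miRNAs tested. bta-miR-183 was also called lower in TCs at weeks 5 and 6 (log2 fold change -1.70, adjusted p = 0.24) and in all cows (-1.44, adjusted p = 0.156) against heifers, where limma called 3.91% and 5.26% of the miRNAs lower. In these comparisons limma without a block did not call bta-miR-132. In the other 9 comparisons 0 members of the list were called by limma.

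The miRNAs whose levels were most like that of bta-miR-132 over the 13 pools were bta-miR-6120-3p (Pearson's r 0.74, Spearman's rho 0.75), bta-miR-503-5p (0.66 and 0.64), bta-miR-129 (0.65 and 0.60), bta-miR-155 (0.64 and 0.63) and bta-miR-2313-3p (0.64 and 0.66). No miRNA reached an r of 0.8 in either direction. These correlations describe 13 pools from 5 groups. Without heifer replicate 3 and APC replicate 1, Pearson's r was 0.53, 0.49, 0.34, 0.46 and 0.58 in the same order. These 2 pools were the farthest from the median level of bta-miR-132. bta-miR-6120-3p had 5 to 36 reads per library and bta-miR-2313-3p had 0 to 13, so that both are measured coarsely. bta-miR-129 is best known from nerve cells and bta-miR-155 from activated leukocytes, and bta-miR-503-5p is transcribed with bta-miR-424-5p. bta-miR-129 was 442 CPM in heifer replicate 3, its highest value, against 63.3 and 35.4 CPM in heifer replicates 1 and 2. bta-miR-155 was likewise highest there, at 2023 CPM, but it was at least 804 CPM in all heifers and at most 656 CPM in every cow pool. Within groups, with each group centred on its mean, the r of bta-miR-129 was 0.71 and that of bta-miR-155 was 0.55.

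The lowest correlations were those of bta-miR-23b-5p (r -0.74, rho -0.71), bta-miR-197 (-0.66 and -0.60) and bta-miR-126-5p (-0.63 and -0.57). bta-miR-23b-5p had 3 to 10 reads and bta-miR-197 had 1 to 27 reads per library. bta-miR-126-5p, which is cut from an intron of the endothelial gene EGFL7, had 54 to 342 reads and is the better measured. It was 715, 831 and 388 CPM in TCs at weeks 5 and 6 and 364, 686 and 917 CPM in TCs at weeks 9 and 10. It was 372 and 394 CPM in ANCs, 335 and 822 CPM in APCs, and 477, 578 and 389 CPM in heifers. In every group the pool with the most bta-miR-132 held the least bta-miR-126-5p, and all 11 pairs of pools of the same group were in the opposite order. The ANC pair rests on 24 and 11 reads of bta-miR-132, whose exact intervals overlap, so its order is within counting error. Within groups the r of bta-miR-126-5p with bta-miR-132 was -0.94, the lowest of the 246 other miRNAs, the next being -0.83. bta-miR-126-5p was picked for its low r over these same pools, so its order and this r are not separate evidence. One other miRNA, bta-miR-6529, named after its values were seen, was in the same order as bta-miR-132 in all 11 pairs. bta-miR-126-5p varied far less, with a range of 1.44 on the log2 scale against 6.42 for bta-miR-132. The ANCs departed from the relation between groups, with low levels of both miRNAs.

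**Figure D4:**
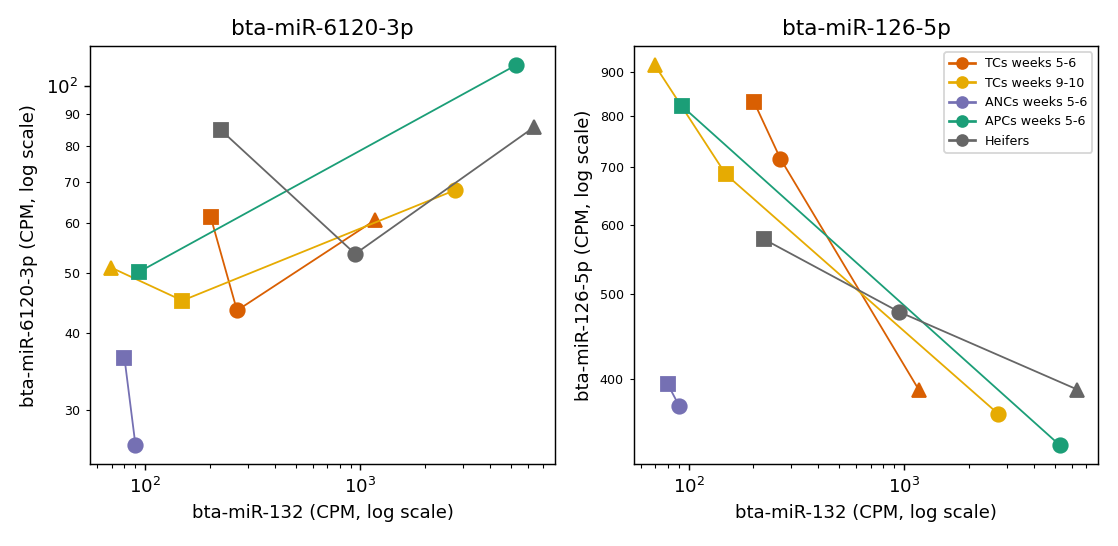
Levels of bta-miR-6120-3p (left) and bta-miR-126-5p (right) against that of bta-miR-132 in 13 pools, in CPM on log axes, with pools of a group joined by a line and symbols for the replicate number (circle 1, square 2, triangle 3). In the right panel all 5 lines run downward, with both ANC pools at the lower left, their line spanning only 80.2 to 90.3 CPM of bta-miR-132. In the left panel 5 of the 11 pairs of pools run against the overall trend.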

How the data were processed

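EV small RNA of 13 follicular fluid pools was sequenced after QIAseq library preparation. The authors trimmed reads with Cutadapt 1.11, mapped them with Bowtie2 2.2.2 to UMD3.1, annotated them with miRBase and normalized them by TMM, per the submitters' processing notes and the study's methods. The deposited values are TMM-normalized CPM, and where a library's deposited total exceeds 1000000 the column was recorded as a signal. bta-miR-132 and all lists were chosen with earlier results of these data known.

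The value of 1 read was found from the steps between low values, and all 3681 values then came to whole reads (tolerance 0.1 reads), with 145030 to 421435 reads per library. log2(CPM + 5) was fitted with limma 3.58.1 (trended variance), with TMM factors (edgeR 4.0.16) and filterByExpr (minimum count 10, minimum total 15), for the 2 groups of each comparison, or to all 13 libraries for contrasts over several groups. Fold changes on this scale understate changes of low miRNAs. Exact permutation tests were two-sided. The miRNAs named are the 5 with the highest and the 3 with the lowest Pearson's r with bta-miR-132, the listed miRNAs regulated by luteinizing hormone or cyclic AMP, and cell type markers beside a value of bta-miR-132. Replicate numbers come from the labels. They were taken to pair the pools where at least 3 same-numbered pairs deviated together with every correlation over 0.1. This was met by TCs at weeks 5 and 6 with heifers (0.22, 0.38 and 0.39). Comparisons with fewer such pairs were not taken as paired. Among these, ANCs with TCs at weeks 9 and 10 had 0.40 and 0.50, APCs with the same TCs 0.50 and 0.49, and ANCs with APCs 0.22. Scripts were tested on simulated data. edgeR and DESeq2 1.42.0 on the recovered reads, other scalings, pseudocounts and filters, the replicate block, the day of RNA measurement, other moderation and leaving out each pool were the alternatives. No genome of build UMD3.1 was used, so that no coordinates or sequences are given.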

Additional observations from a re-analysis of the deposited data

How the results depend on the processing

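With 2 or 3 pools per group, exact tests of pairs of groups could not fall below 0.1, or 0.333 for 2 pools against 2, and bta-miR-132 had as few as 11 reads in a library. For ANCs against heifers, 1 fit over all libraries gave -3.63 and limma without moderation, chosen after seeing the data, -3.62, neither called. Robust moderation kept the call, and leaving out 1 pool gave -4.68 to -2.36. The miRNAs called there numbered 41, against 64 with the replicate block, 0 without moderation and 15 (without ANC replicate 1) to 61 (without heifer replicate 3) with 1 pool left out. With the day of RNA measurement the adjusted p was 3.82e-11 by limma, the lowest of the alternatives. Yet heifer replicates 2 and 3, measured on the same day, held 224 and 6382 CPM. The moderated fit draws on the spread of all miRNAs, so that this p does not measure the spread of bta-miR-132 alone. For TCs at weeks 5 and 6 against heifers, 15 miRNAs were called, against 36 with DESeq2, 34 with the replicate block, 26 with scaling to total reads, 8 without moderation, 4 with a pseudocount of 1, 0 with the day of RNA measurement and 0 to 46 with 1 pool left out. bta-miR-132 was called there by DESeq2 (-2.08) and with the replicate block (-1.44). DESeq2 gave -4.96 for ANCs against APCs and -3.47 for ANCs against TCs at weeks 9 and 10, and the replicate block -2.90 for the latter, all called. For APCs against heifers the sign was positive with edgeR (0.13), DESeq2 (0.083) and the replicate block (0.71), and edgeR gave 0.98 for TCs at weeks 9 and 10 against weeks 5 and 6. Outside TCs at weeks 5 and 6 against heifers the replicate numbers were not taken as pairs. Where the replicate block drops heifer replicate 3, the value for ANCs against heifers was -2.38 and still called. The block changed no other call of bta-miR-132. Leaving out 1 pool gave -5.80 to -0.11 for ANCs against APCs, -3.40 to 2.30 for APCs against heifers, -2.02 to 3.64 and -1.58 to 4.15 for APCs against TCs at weeks 5 and 6 and weeks 9 and 10, -1.86 to 0.67 between the times of TCs and -2.75 to 0.11 for negative against positive cows. Of 224 values under alternatives, 201 kept direction and call, 12 changed sign, 8 gained and 3 lost the call. Scaling to total reads shifted the median of all miRNAs by up to 0.59 on the log2 scale and left each direction of bta-miR-132 as it was. DESeq2 gave no p for TCs at weeks 9 and 10 against weeks 5 and 6, and the day of RNA measurement was not run for comparisons with APCs, whose replicate 2 has no day. The causes were not tested.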
